A study of Mus musculus with 17 samples.

Results

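The effect of Hif1a deletion on kidney RNA was read across all 13 mice that express the fusion protein PRCC-TFE3, out of 17 mice sequenced. PRCC-TFE3 joins PRCC to the transcription factor TFE3 and is found in a rare renal cell carcinoma. Its allele sits in Rosa26 behind a stop cassette that KSP-Cre, a Cre recombinase driven in kidney epithelial cells by the Cadherin 16 promoter, removes. The HIF1a-deleted arm held 7 kidneys, 4 of HIF1a KO mice (PRCC-TFE3 KI with floxed Hif1a) and 3 of DKO mice (floxed Hif1a and floxed Hif2a, the gene Epas1). The HIF1a-intact arm held 6 kidneys, 3 of KI mice with the PRCC-TFE3 allele alone and 3 of HIF2a KO mice with floxed Hif2a. All 13 mice carried KSP-Cre and PRCC-TFE3, and the HIF2a genotype was a covariate in the comparison. The other 4 mice, Cre(-), carried the PRCC-TFE3 allele without Cre recombinase, and 2 of them also carried the floxed Hif1a allele. Kidneys were taken at 8 months of age. Each library is whole kidney, in which cells outside the reach of KSP-Cre keep both genes, and fewer cells of a type and less RNA per cell cannot be told apart.

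HIF1α is the oxygen-regulated subunit of a transcription factor that binds DNA together with ARNT. It is hydroxylated and degraded through VHL when oxygen is present, and when stable it raises genes of glucose uptake, glycolysis, lactate export and blood vessel growth. Renal proximal tubule cells, in contrast, run mostly on fatty acid oxidation and make glucose.

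At the gene level, the targeted gene was not called lower. Hif1a (ENSMUSG00000021109.13, chromosome 12, 73901375 to 73947530 of GRCm38) had 181 CPM in the lowest, 228 in the median and 275 in the highest HIF1a-intact kidney, where CPM are counts scaled to TMM-adjusted library sizes, comparable between mice but not between genes. The 7 HIF1a-deleted kidneys had 173, 202 and 218 CPM in the same order, and the arms overlapped. The difference in log2 was -0.18 (SE 0.10, edgeR adjusted p = 0.284). A gene-level count covers all exons of all kidney cells, so it does not show the state of the floxed exon in the cells with Cre recombinase. Epas1 (ENSMUSG00000024140.10, chromosome 17, 86753700 to 86833410) stood at 146, 173 and 206 CPM in HIF1a-intact and 165, 176 and 192 CPM in HIF1a-deleted kidneys, with a log2 difference of 0.02 (SE 0.06, edgeR adjusted p = 0.9).

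Library totals ranged from 16504419 to 24668827 counts, and a detection floor of 3 counts stood at 0.123 to 0.184 CPM, counting error only. On the first principal component of the 500 most variable genes, which held 29% of the variance, HIF1a KO replicate 2 lay at -19.3 among the KI kidneys (-34.4 to -16.7). HIF2a KO replicate 1 lay at 21.6, among the DKO kidneys (1.86 to 24.7) and away from the other HIF2a KO kidneys (-5.7 and -4.63). KI replicate 2 held 3679 TPM of summed adipocyte markers (TPM, which also scales for transcript length), against 104 to 705 TPM in the other 12 kidneys. Library numbers largely follow the groups, so library order and genotype cannot be told apart. P-values measure the spread between these mice.

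Genes lower in HIF1a-deleted kidneys included 5 of 26 genes of glycolysis, 5 of 36 of sterol and lipid synthesis and 7 of 29 of the TFE3 and lysosome list, and genes higher there included 3 of 7 of the thick ascending limb. Across the 16738 genes tested by edgeR's quasi-likelihood test with the HIF2a covariate, 508 (3.04%) passed an adjusted p under 0.05. Of these, 366 (2.19%) were lower and 142 (0.848%) were higher in HIF1a-deleted kidneys. An unadjusted p under 0.05 was far more common, reached by 3819 genes (22.8%), and the counts at that level in the gene lists are read against this share. The genes that fell had a median of 72.8% of the HIF1a-intact level, and those that rose a median of 1.43-fold. A log2 difference of at least 1 was reached by 32 of the lower and 34 of the higher genes. Without any overlap between the 7 and the 6 kidneys, 59 of the lower genes stood below and 29 of the higher genes stood above, where 0.538% and 0.245% of all genes tested did so. The size of these counts rested on single mice. Leaving out any mouse other than HIF1a KO replicate 2 moved both counts by more than 1.5 times, from 3 lower genes (without KI replicate 2 or without DKO replicate 3) to 868 (without HIF2a KO replicate 1). The higher genes ranged from 6 (without KI replicate 2) to 579 (without HIF2a KO replicate 1). Without both libraries that stood apart, 952 genes were lower and 734 were higher. Without the HIF2a covariate, 3 genes were lower and 7 higher. Each of the 72 named genes past the threshold kept its direction in every alternative fit listed in the closing section. They were picked by their values in these same kidneys, so the kept direction is no separate support. Of these 72 genes, 7 stayed past the threshold in all 13 fits that left out a mouse, among them Dhrs7, Cdkl1, Gm4742, Gm3375, Bcl6 and Ptger3. Gm3375 was also low with HIF1a intact in HIF2a KO kidneys, at 0.128 to 0.169 TPM. It did not differ between DKO and HIF2a KO kidneys (log2 -0.76, edgeR adjusted p = 0.918), so its call rested on the KI kidneys.

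**Figure D1:**
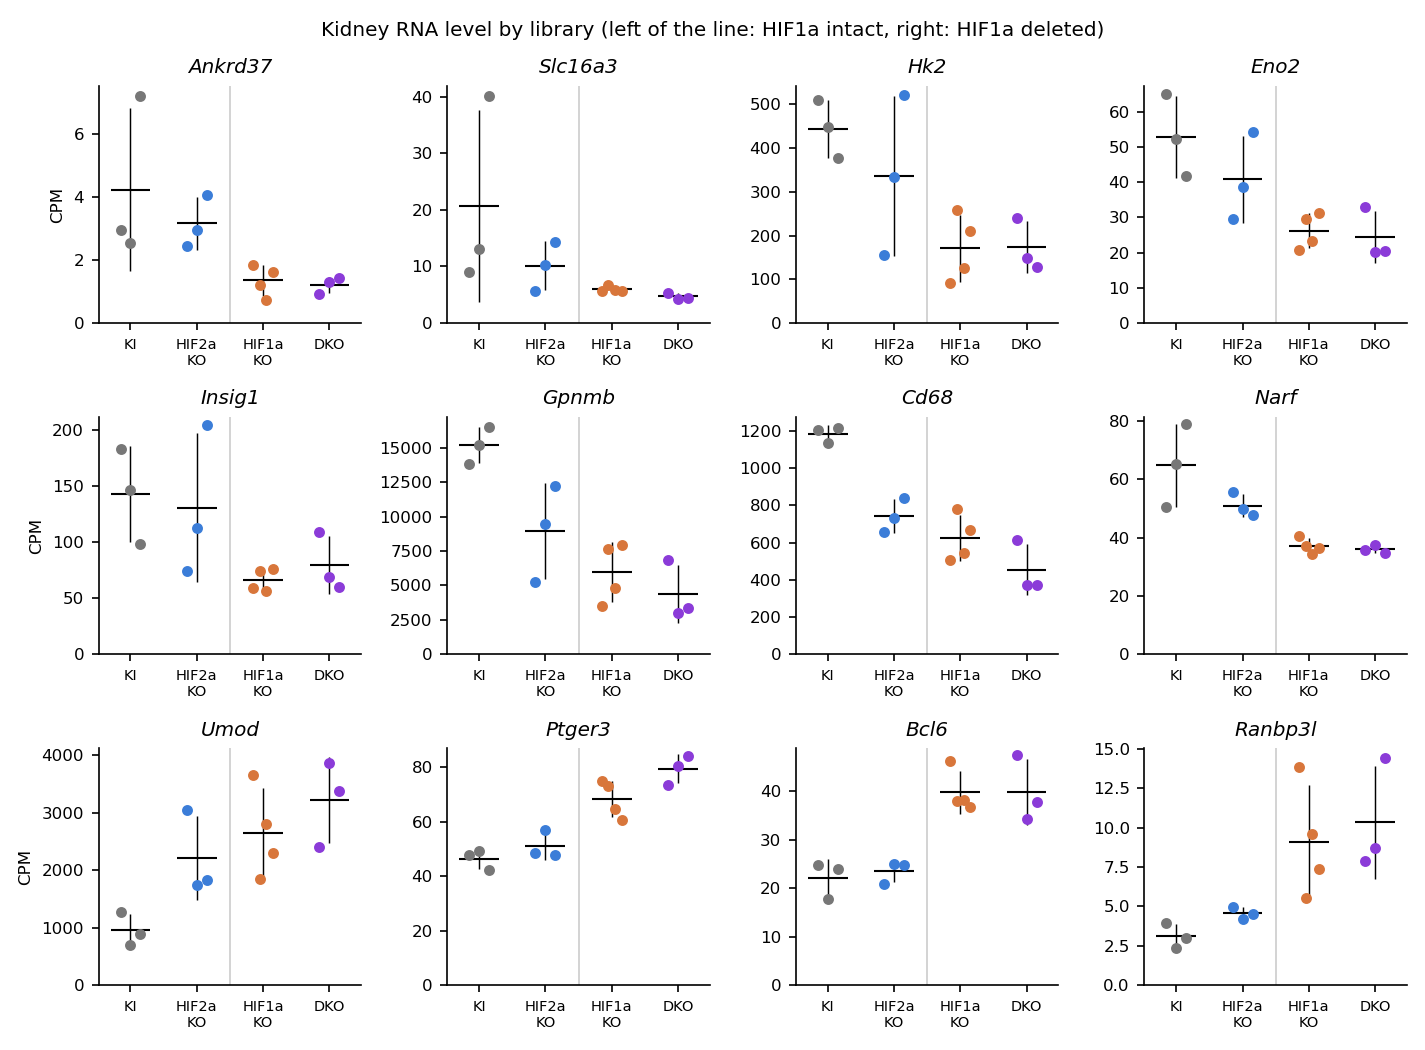
CPM of 12 genes in each knock-in kidney by group, with points for single kidneys, horizontal lines for group means and vertical lines for 1 SD. Ankrd37, Narf, Ptger3, Bcl6 and Ranbp3l show no overlap between the 6 HIF1a-intact and the 7 HIF1a-deleted kidneys, while Hk2, Eno2, Insig1, Gpnmb, Cd68, Slc16a3 and Umod overlap.

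Of 26 genes of glycolysis tested, 5 fell in HIF1a-deleted kidneys and 0 rose. An unadjusted p under 0.05 was reached by 17 of the 26, 14 lower and 3 higher, beside 22.8% of all genes. The median log2 difference of the list was -0.26, beside 0.00071 over all genes tested. Slc16a3, which exports lactate from the cell, had 5.69, 11.6 and 40.1 CPM (lowest, median, highest) in HIF1a-intact kidneys. In HIF1a-deleted kidneys it had 4.27, 5.66 and 6.73 CPM, and only HIF2a KO replicate 1 kept the arms from being separate. The log2 difference was -1.48 (SE 0.32, edgeR adjusted p = 0.0364). Hk2, a hexokinase that traps glucose in the cell, stood at 155, 412 and 520 CPM with HIF1a intact and 91.2, 149 and 258 CPM with HIF1a deleted (log2 -1.18, SE 0.29, edgeR adjusted p = 0.0484). Its lowest intact kidney was again HIF2a KO replicate 1, and the other 5 intact kidneys lay above all 7 deleted ones. Eno2, an enolase, fell to 54.2% (log2 -0.88, SE 0.17, edgeR adjusted p = 0.03), from 29.6, 47.0 and 65.0 to 20.2, 23.3 and 32.9 CPM. Pkm, pyruvate kinase, went from 491, 577 and 763 CPM to 444, 472 and 486 CPM without overlap (log2 -0.37, SE 0.09, edgeR adjusted p = 0.0462). Gapdh differed by -0.43 in log2 (SE 0.11, edgeR adjusted p = 0.0488).

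Not all members went down. Ldhb, lactate dehydrogenase B, had a log2 difference of 0.31 (edgeR adjusted p = 0.239), while Pfkl stood at -0.51 (edgeR adjusted p = 0.0886) and Tpi1 at -0.39 (edgeR adjusted p = 0.0599). Slc2a1, the glucose carrier of most cells, had 66.1, 82.8 and 136 CPM with HIF1a intact and 67.7, 83.1 and 106 CPM with HIF1a deleted. The difference was -0.11 in log2 (SE 0.17, edgeR adjusted p = 0.743), smaller than the spread of either arm. Ldha, lactate dehydrogenase A, stood at -0.28 (SE 0.10, edgeR adjusted p = 0.11), Pgk1 at -0.24 (SE 0.12, edgeR adjusted p = 0.251) and Pdk1, which blocks pyruvate entry into mitochondria, at -0.32 (SE 0.13, edgeR adjusted p = 0.156).

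Among 30 known HIF targets tested, 4 fell and 0 rose, where 2.19% of all genes fell, with a median log2 difference of -0.11. An unadjusted p under 0.05 was reached by 10 of them, 9 lower and 1 higher, beside 22.8% of all genes. Ankrd37, an ankyrin repeat protein whose RNA is strongly hypoxia-inducible, had 2.43, 2.95 and 7.19 CPM in HIF1a-intact and 0.742, 1.29 and 1.84 CPM in HIF1a-deleted kidneys. Every deleted kidney was below every intact one, at 35% of the intact level (log2 -1.51, SE 0.28, edgeR adjusted p = 0.0283). Narf, a nuclear protein that binds prelamin A, went from 47.7, 53.0 and 79.0 CPM to 34.5, 36.4 and 40.6 CPM, also without overlap (log2 -0.67, SE 0.10, edgeR adjusted p = 0.0129). Narf stayed past the threshold in 12 of the 13 fits that left out a mouse, and Ankrd37 in 5. Ccnd1, cyclin D1, differed by -0.65 (SE 0.14, edgeR adjusted p = 0.0379) and Bhlhe40, a hypoxia-inducible repressor of transcription, by -0.42 (SE 0.10, edgeR adjusted p = 0.0454). Vegfa, the angiogenic growth factor, had 195, 203 and 334 CPM against 169, 193 and 209 CPM (log2 -0.25, SE 0.11, edgeR adjusted p = 0.179), and the arms overlapped. Bnip3l, a mitophagy receptor, showed no overlap but missed the threshold (log2 -0.31, edgeR adjusted p = 0.0732). Of the 10 genes of the HIF pathway itself, none passed by edgeR, and 4 had an unadjusted p under 0.05 (22.8% of all genes), among them Vhl at -0.33 (edgeR adjusted p = 0.0761) and Hif3a at 1.00 (edgeR adjusted p = 0.118).

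The promoters of 4 of these genes are printed to show where the core of the HIF binding motif stands in genes that fell with Hif1a deletion. Each is the 250 bases before a RefSeq transcription start (GRCm38.p6), read 5′ to 3′ on the strand of the gene, and capitals mark ACGTG or GCGTG on either strand, where matches may overlap. Such a core was found in 38.6% of all 32851 promoter windows of this length, so a match is a description of the sequence and not a binding site. Ankrd37 (chr8:45999851-46000100, minus strand) held 4 matches, 2 of which overlap, and Slc16a3 (chr11:120948817-120949066, plus strand) held 2. Hk2 (chr6:82774455-82774704, minus strand) and Gapdh (chr6:125165774-125166023, minus strand) held 2 each.
Ankrd37: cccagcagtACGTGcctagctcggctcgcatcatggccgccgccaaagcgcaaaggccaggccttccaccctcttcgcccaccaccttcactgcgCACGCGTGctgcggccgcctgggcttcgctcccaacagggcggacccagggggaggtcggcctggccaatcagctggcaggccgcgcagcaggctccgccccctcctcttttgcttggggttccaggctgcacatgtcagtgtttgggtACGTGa
Slc16a3: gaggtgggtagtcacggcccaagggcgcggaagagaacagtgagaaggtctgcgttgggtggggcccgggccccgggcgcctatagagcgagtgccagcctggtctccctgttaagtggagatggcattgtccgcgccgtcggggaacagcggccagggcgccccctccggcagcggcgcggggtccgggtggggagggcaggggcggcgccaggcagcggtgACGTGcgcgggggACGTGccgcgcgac
Hk2: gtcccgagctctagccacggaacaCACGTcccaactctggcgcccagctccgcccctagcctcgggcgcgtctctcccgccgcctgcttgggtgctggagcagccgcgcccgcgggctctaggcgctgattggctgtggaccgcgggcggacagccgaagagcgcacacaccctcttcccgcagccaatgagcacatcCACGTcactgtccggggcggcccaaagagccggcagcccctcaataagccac
Gapdh: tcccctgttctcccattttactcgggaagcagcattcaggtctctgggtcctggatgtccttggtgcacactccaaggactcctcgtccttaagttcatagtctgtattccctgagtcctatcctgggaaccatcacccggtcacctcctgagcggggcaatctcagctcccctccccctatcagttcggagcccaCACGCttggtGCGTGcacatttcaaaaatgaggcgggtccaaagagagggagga
The window of Eno2, which fell, held no such core, whereas a window of Ldha, which did not pass the threshold, held 5 matches. The windows of Pkm, which fell too, held 0 and 1 matches, and that of Narf, which fell as well, held 1.

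Of 36 genes of sterol and lipid synthesis tested, 5 fell, where 2.19% of all genes did, and 0 rose. In this list 28 had a negative log2 difference (median -0.15, beside 0.00071 over all genes tested). An unadjusted p under 0.05 was reached by 16 of them, 15 lower and 1 higher, beside 22.8% of all genes. Insig1 and Insig2 hold the SREBP activator SCAP in the endoplasmic reticulum when sterols are plentiful. Insig1 had 74.5, 129.5 and 204 CPM in HIF1a-intact and 56.2, 69.1 and 109 CPM in HIF1a-deleted kidneys (log2 -0.92, SE 0.23, edgeR adjusted p = 0.0498), which puts it just inside the threshold. Insig2 went from 60.7, 89.2 and 114 CPM to 40.9, 51.1 and 68.2 CPM (log2 -0.66, SE 0.15, edgeR adjusted p = 0.0397), and the arms overlapped for both. Sqle, the squalene epoxidase of cholesterol synthesis, differed by -0.33 (SE 0.07, edgeR adjusted p = 0.03) and Fads1, a fatty acid desaturase, by -0.26 (SE 0.06, edgeR adjusted p = 0.0402). Srebf1, which encodes SREBP1, had 58.7, 93.9 and 112 CPM against 56.9, 66.4 and 103 CPM. Its log2 difference over both HIF2a genotypes was -0.38 (SE 0.16, edgeR adjusted p = 0.173), made up of -0.63 between HIF1a KO and KI kidneys and -0.08 between DKO and HIF2a KO kidneys. Without DKO replicate 1 it passed (log2 -0.50, edgeR adjusted p = 0.036), as it did without HIF2a KO replicate 1 (log2 -0.49, edgeR adjusted p = 0.0398). These were 2 of the 13 fits that left out a mouse. In the rest Srebf1 missed the threshold, with an edgeR adjusted p of up to 0.32.

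In the list of TFE3 targets and lysosomal genes, 7 of 29 genes tested fell and 1 rose, with a median log2 difference of -0.17. Of all genes tested, 2.19% fell and 0.848% rose. An unadjusted p under 0.05 was reached by 16 of the 29, 15 lower and 1 higher, beside 22.8% of all genes. Gpnmb, a glycoprotein that TFE3 and its relatives raise, was among the most abundant RNAs, with 5262, 13050 and 16550 CPM in HIF1a-intact and 2993, 4830 and 7968 CPM in HIF1a-deleted kidneys (log2 -1.20, SE 0.26, edgeR adjusted p = 0.0358). Only HIF2a KO replicate 1 overlapped with the deleted kidneys. The cathepsins Ctsd and Ctsb differed by -0.53 (SE 0.12, edgeR adjusted p = 0.0405) and -0.45 (SE 0.09, edgeR adjusted p = 0.0315). Rragd, a Rag GTPase of amino acid sensing, stood at -0.37 (SE 0.09, edgeR adjusted p = 0.0421), and Mcoln1, Atp6v0d1 and Lamp1, all proteins of the lysosomal membrane, at -0.33, -0.33 and -0.27. Ctsk, a cathepsin of osteoclasts and fibroblasts, rose by 0.42 (SE 0.10, edgeR adjusted p = 0.0492). The summed TPM of the list ranged from 14090 to 30600 in HIF1a-intact and from 11920 to 21110 in HIF1a-deleted kidneys.

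Macrophage genes were split. Cd68, a lysosomal glycoprotein of macrophages, had 655, 989 and 1219 CPM in HIF1a-intact and 374, 543 and 778 CPM in HIF1a-deleted kidneys (log2 -0.83, SE 0.14, edgeR adjusted p = 0.0259). It was the only one of 13 macrophage markers tested that passed, and 8 of the 13 had a positive log2 difference. Cd5l, a secreted protein of tissue macrophages outside that list, showed the largest fall of the named protein-coding genes, without overlap, from 2.84, 7.47 and 16.5 CPM to 0.366, 1.27 and 1.97 CPM (log2 -2.74, SE 0.48, edgeR adjusted p = 0.027). The summed TPM of the macrophage list ranged from 2093 to 2722 in intact and from 1608 to 2173 in deleted kidneys. Mx1, an interferon-induced GTPase, fell without overlap from 14.5, 19.2 and 20.4 to 8.84, 12.1 and 13.7 CPM (log2 -0.63, SE 0.11, edgeR adjusted p = 0.027), but was alone among 16 interferon-stimulated genes. Among stress and immediate early genes, Ddit3 (log2 -0.67, SE 0.13, edgeR adjusted p = 0.03), Atf3 (log2 -0.89, SE 0.18, edgeR adjusted p = 0.0324) and the orphan receptor gene Nr4a1 (log2 -0.67, SE 0.16, edgeR adjusted p = 0.0484) fell, while the heat shock gene Hspa1b rose by 0.50 (SE 0.12, edgeR adjusted p = 0.0454). Their lists had little common direction. Of 13 genes of the ATF4 response tested, 1 fell and 0 rose (median -0.046). Of 13 immediate early genes, 2 fell and 1 rose (median -0.095), where 2.19% of all genes fell and 0.848% rose.

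The remaining large falls without overlap were in Sprr2f (log2 -1.73), an epithelial cornified envelope gene, Serpinb9b (-1.37), a serine protease inhibitor, Pspn (-1.34), a neurotrophic ligand, and Pla2g2e (-1.31), a secreted phospholipase. Erich2 (-1.15), Medag (-0.95), Cyp2s1 (-0.83), Pf4 (-0.83) and Sh3bp2 (-0.80) followed. Their edgeR adjusted p ranged from 0.0261 to 0.0464. Pla2g2e may stand for the pattern, with 10.6, 14.3 and 19.4 CPM in HIF1a-intact and 2.64, 6.04 and 9.84 CPM in HIF1a-deleted kidneys. Agt, the angiotensin precursor, fell by 0.72 on the log2 scale (SE 0.12, edgeR adjusted p = 0.0266), from 571, 894 and 1194 to 372, 533 and 763 CPM. Ace, which cleaves angiotensin I, moved the other way, from 21.5, 29.3 and 50.3 to 31.3, 47.9 and 68.9 CPM (log2 0.68, SE 0.16, edgeR adjusted p = 0.04), and the arms overlapped for both genes.

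The thick ascending limb is the nephron segment that reabsorbs salt without water. Of 7 of its genes tested, 3 rose in HIF1a-deleted kidneys, 0 fell and 6 had an unadjusted p under 0.05 (22.8% of all genes), with a median log2 difference of 0.81. Umod, uromodulin, had 704, 1510 and 3056 CPM in HIF1a-intact and 1851, 2804 and 3872 CPM in HIF1a-deleted kidneys (log2 1.03, SE 0.25, edgeR adjusted p = 0.0454). The 3 KI kidneys lay below every other kidney, and HIF2a KO kidneys overlapped with the deleted arm. Cldn10, a claudin of the tight junction, rose by 0.81 (SE 0.19, edgeR adjusted p = 0.0409). Ptger3, a prostaglandin E2 receptor, rose without overlap from 42.3, 48.1 and 56.9 to 60.7, 73.6 and 84.3 CPM (log2 0.60, SE 0.07, edgeR adjusted p = 0.00264), and it passed in all 13 fits that left out a mouse. Slc12a1, the sodium-potassium-chloride carrier of the segment, stood at 1.07 (edgeR adjusted p = 0.0839).

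By edgeR 0 of 15 proximal tubule markers tested passed, 11 had an unadjusted p under 0.05 (22.8% of all genes), 14 had a positive log2 difference, and the median was 0.77. Among the largest were Kap at 2.12 (edgeR adjusted p = 0.0754), Slc22a8 at 1.52 (edgeR adjusted p = 0.148) and Slc34a1, the phosphate carrier, at 1.06 (edgeR adjusted p = 0.115). The summed TPM of the list was 888 to 1158 in KI, 1207 to 3149 in HIF2a KO, 1485 to 3509 in HIF1a KO and 2357 to 4846 in DKO kidneys, where Cre(-) kidneys held 22630 to 33180. Of 25 genes of fatty acid oxidation and ketone bodies, 23 had a positive log2 difference (median 0.26) and 12 an unadjusted p under 0.05 (22.8% of all genes), but by edgeR none passed. Cpt1a, which commits fatty acids to mitochondria, had 203, 227 and 280 CPM against 212, 307 and 371 CPM (log2 0.30, SE 0.11, edgeR adjusted p = 0.118). Without HIF2a KO replicate 1 it passed at 0.37 (edgeR adjusted p = 0.0277), as it did without DKO replicate 1 (edgeR adjusted p = 0.0354). Among the 13 fits that left out a mouse, Cpt1a passed in these 2 only. Its edgeR adjusted p reached up to 0.233 in the rest. Of 10 genes of gluconeogenesis, 8 were positive (median 0.39), and by edgeR none passed. An unadjusted p under 0.05 was reached by 4 of the 10, 3 higher and 1 lower (22.8% of all genes). Fbp1 stood at 1.15 (edgeR adjusted p = 0.0657) and Pck1 at 1.84 (edgeR adjusted p = 0.0984).

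The proximal tubule level moved with the gene groups above, and its part in them was not tested beyond 1 fit. When the mean log2 CPM of the 15 proximal tubule markers was added to the fit as a covariate, 2 genes were higher and 1 was lower in HIF1a-deleted kidneys. The log2 difference of Hk2 was then -0.40, that of Insig1 -0.48, that of Gpnmb -0.57 and that of Umod 0.43. Ankrd37 stood at -1.64 (edgeR adjusted p = 0.321), Narf at -0.72 (edgeR adjusted p = 0.205) and Ptger3 at 0.63 (edgeR adjusted p = 0.0736) in that fit. Dhrs7 and Gm4742 were among the 3 genes past the threshold there.

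**Figure D2:**
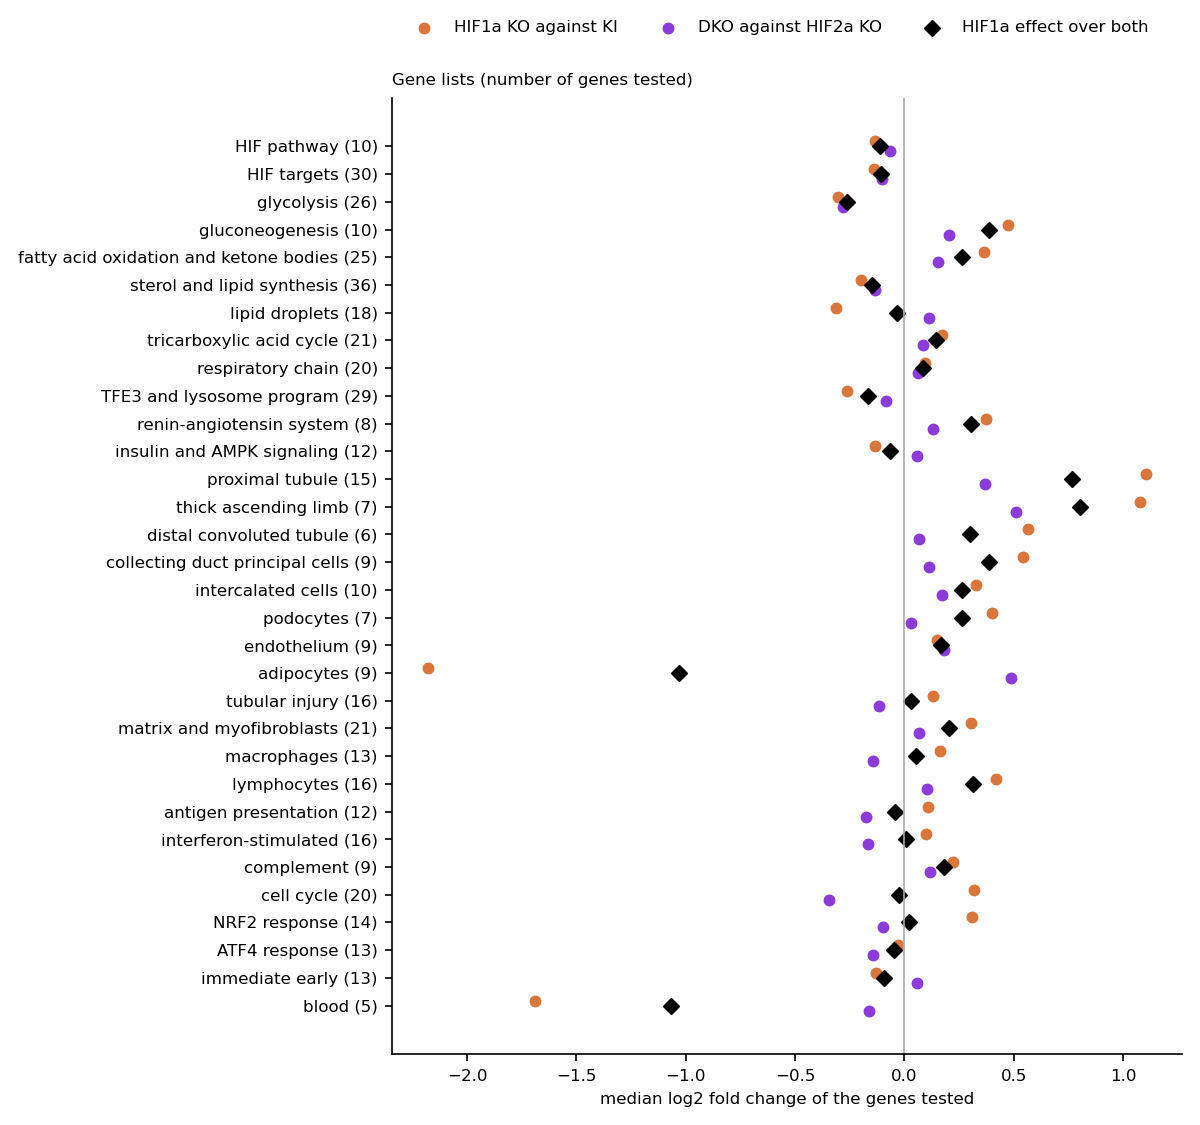
Median log2 difference of the tested genes of each gene list for the HIF1a effect over both HIF2a genotypes (diamonds) and for each separate comparison (circles). Glycolysis lies below 0 in both comparisons (-0.302 and -0.279), and the thick ascending limb (1.08 and 0.512) and proximal tubule lists (1.11 and 0.371) lie above 0 in both.

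The remaining large rises without overlap were led by Ranbp3l, a nuclear export factor, with 2.37, 4.06 and 4.96 CPM in HIF1a-intact and 5.52, 8.71 and 14.5 CPM in HIF1a-deleted kidneys (log2 1.38, SE 0.23, edgeR adjusted p = 0.0259). Ccl28, a mucosal chemokine, rose from 22.1, 29.7 and 37.6 to 45.2, 67.3 and 111 CPM (log2 1.22, SE 0.19, edgeR adjusted p = 0.022). Bcl6, a transcriptional repressor, rose from 17.7, 24.3 and 24.9 to 34.3, 38.0 and 47.5 CPM (log2 0.81, SE 0.10, edgeR adjusted p = 0.00614), and every one of the 13 fits that left out a mouse kept it past the threshold. Ndc1, a membrane nucleoporin, rose by 0.78 (SE 0.11, edgeR adjusted p = 0.0129), Nell2, a secreted neural growth factor, by 1.01 (SE 0.19, edgeR adjusted p = 0.0282), and Cyp2b9, a cytochrome P450, by 1.11 (SE 0.23, edgeR adjusted p = 0.0334) from low levels. Slco4a1 (log2 0.71), an organic anion carrier, Rasd1 (0.69), a Ras-like GTPase, Mrps6 (0.58), a mitochondrial ribosomal protein, and Ildr1 (0.53), a tricellular junction protein, completed the group, with edgeR adjusted p from 0.0259 to 0.0498. Fabp3, a fatty acid carrier, rose by 0.84 (SE 0.19, edgeR adjusted p = 0.0405), Col1a2, a fibrillar collagen chain, by 0.53 (SE 0.11, edgeR adjusted p = 0.0324), and Sucla2, a subunit of succinyl-CoA ligase, by 0.32 (SE 0.08, edgeR adjusted p = 0.0437). Plin3, a lipid droplet coat protein, fell by 0.57 on the log2 scale (SE 0.12, edgeR adjusted p = 0.0345). Ucp1, the thermogenic protein of brown fat, ranged from 0 to 22.7 CPM in HIF1a-deleted and from 0 to 0.235 CPM in HIF1a-intact kidneys, and 1 DKO kidney held none, while its edgeR adjusted p was 0.0337.

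The HIF1a effect can be read in 2 comparisons that share no mouse, HIF1a KO against KI and DKO against HIF2a KO. With HIF2a intact, 720 genes (4.3%) passed, 312 higher and 408 lower in HIF1a KO than in KI kidneys. With HIF2a deleted, 4 genes (0.0239%) passed, 2 higher and 2 lower in DKO than in HIF2a KO kidneys, and 979 had an unadjusted p under 0.05. DESeq2 called 24 genes in the latter comparison. No gene passed the test of the difference between the comparisons (0% of 16738) by edgeR, the smallest adjusted p being 0.0984, while 1000 genes had an unadjusted p under 0.05 and DESeq2 called 49. Leaving out HIF1a KO replicate 3 or HIF2a KO replicate 1 gave 1 gene by edgeR.

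Directions were largely shared between these comparisons, which have no mouse in common but take their spread from 1 fit. Of the 408 genes lower in HIF1a KO than in KI, 378 (92.7%) were also lower in DKO than in HIF2a KO kidneys, where 49.9% of all genes tested were. An unadjusted p under 0.05 in that direction was reached by 132 of them (32.4%), against 622 (3.72%) of all genes. Of the 312 genes higher in HIF1a KO than in KI, 258 (82.7%) were higher in DKO than in HIF2a KO kidneys and 56 (17.9%) reached an unadjusted p under 0.05, against 357 (2.13%) of all genes. The median log2 difference of the lower genes was -0.55 in the first and -0.19 in the second comparison, and that of the higher genes was 0.77 and 0.15. The genes were picked by their values in the first comparison, so the sizes are not set against each other by a test. The proximal tubule list moved in both comparisons too, with a median of 1.11 in HIF1a KO against KI and 0.37 in DKO against HIF2a KO.

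**Figure D3:**
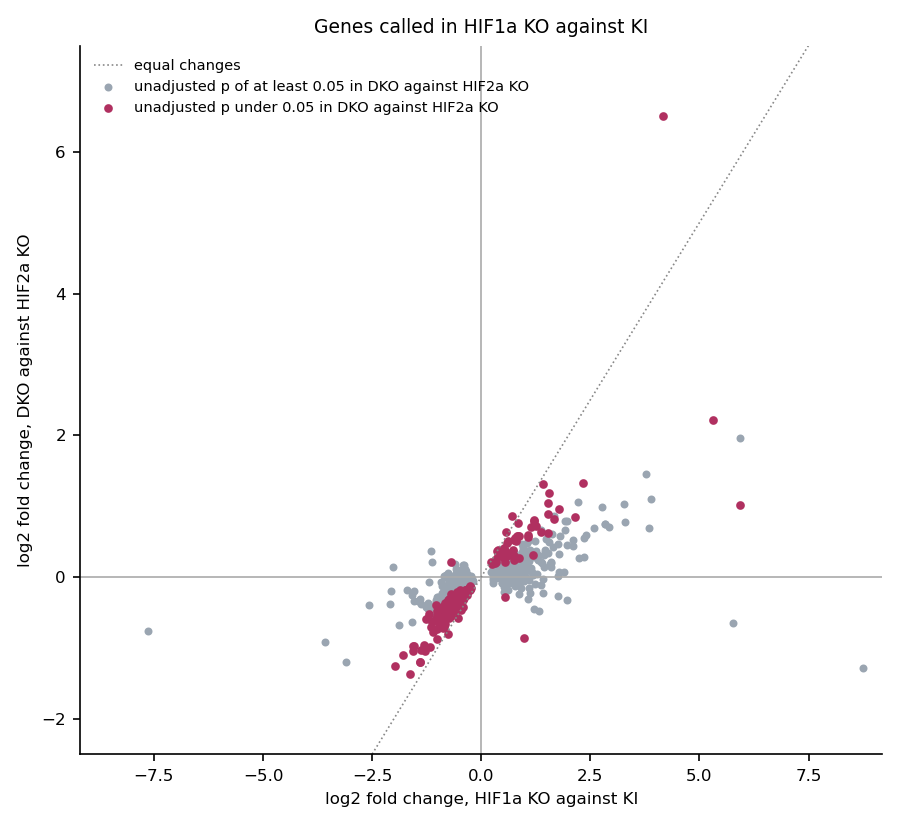
Log2 difference in DKO against HIF2a KO kidneys (vertical axis) against that in HIF1a KO against KI kidneys (horizontal axis) for the 720 genes called in the latter, with the dotted line for equal changes. Most points lie in the quadrants of shared direction and nearer to 0 on the vertical axis, and red marks genes with an unadjusted p under 0.05 there, 132 of shared direction among the lower and 56 among the higher genes.

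Several of the genes with the smallest p-values of the HIF1a effect lay beside Hif1a on chromosome 12. Within 10 Mb of the gene, 12 of 128 genes tested passed (9.38%), 6 higher and 6 lower, against 14 of 552 (2.54%) on the rest of chromosome 12, and 4 of the 10 smallest p-values in the genome were there. These genes were named after their values were seen. Dhrs7 (ENSMUSG00000021094.10, 72650353 to 72664909), a short-chain dehydrogenase, had 34.4, 38.0 and 46.4 CPM in HIF1a-intact and 20.1, 22.4 and 27.3 CPM in HIF1a-deleted kidneys (log2 -0.79, SE 0.07, edgeR adjusted p = 0.00019). The arms did not overlap, and Dhrs7 passed in every alternative fit.

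Cdkl1, a protein kinase gene, rose from 12.9, 29.7 and 43.9 to 39.0, 63.2 and 86.1 CPM (log2 1.29, SE 0.17, edgeR adjusted p = 0.00904), and its neighbour Map4k5 by 0.37 (SE 0.05, edgeR adjusted p = 0.0129) without overlap. Arid4a, Togaram1 and Slc10a1 also rose. Snapc1, which starts downstream of Hif1a and serves small nuclear RNA transcription, fell without overlap by 0.41 on the log2 scale (SE 0.07, edgeR adjusted p = 0.027). Gpr135 (-0.78), Rtn1 (-0.67), Churc1 (-0.54) and Daam1 (-0.27) also fell. With all genes of this window left out before the fit, 131 genes were higher and 267 lower over the rest of the genome. With the window kept, the counts were 142 and 366. Only 6 of each lay in the window, so fewer genes outside it passed as well.

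**Figure D4:**
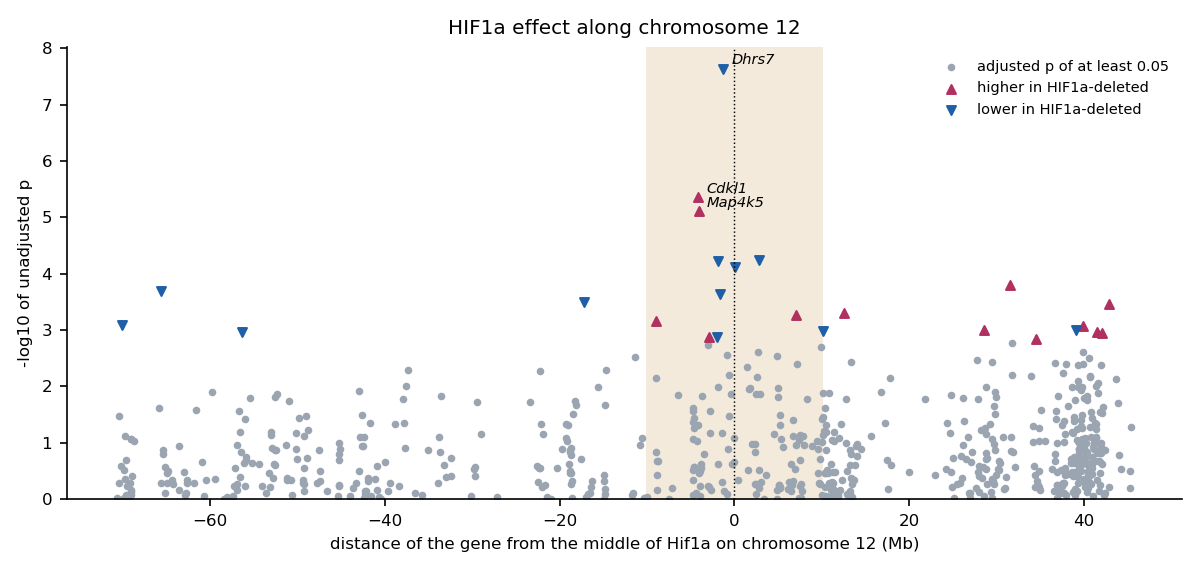
Unadjusted p of the HIF1a effect (-log10, vertical axis) of genes tested on chromosome 12 by their distance from the middle of Hif1a in Mb, with the window of 10 Mb on either side shaded. Dhrs7, Cdkl1 and Map4k5 stand high inside the shaded window, and triangles mark genes past the threshold, pointing up for higher and down for lower.

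Among the 4 genes called in DKO against HIF2a KO kidneys were Dhrs7 (log2 -0.71, SE 0.10, edgeR adjusted p = 0.0361), the pseudogene Gm4742 on chromosome 14 (log2 6.50, SE 0.60, edgeR adjusted p = 0.0025) and Lrmda, a melanocyte gene on chromosome 14 (log2 -2.99, SE 0.33, edgeR adjusted p = 0.00959). Gm4742 had at most 0.123 CPM in HIF1a-intact and 1.53, 2.09 and 3.26 CPM in HIF1a-deleted kidneys. Its HIF1a-intact values were at or below the detection floor (0.123 to 0.184 CPM), so the size of its log2 difference is uncertain. Reads of a processed pseudogene and of its parent gene can be shared, so its count is uncertain. Lrmda stood at 3.58, 3.15 and 3.53 CPM in HIF2a KO and 0.415, 0.281 and 0.576 CPM in DKO kidneys, beside 7.68 to 7.92 CPM in KI and 3.13 to 7.14 CPM in HIF1a KO kidneys. Over both HIF2a genotypes it missed the threshold (log2 -1.44, SE 0.40, edgeR adjusted p = 0.0693), and it passed with the 4 group means averaged (log2 -1.73, edgeR adjusted p = 0.00425).

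The Cre(-) kidneys, which took no part in the HIF1a effect, carry Hif1a intact with or without the floxed allele. They compare mice with and without the allele in the absence of deletion. Any other difference between those mice cannot be told apart from the allele. Genes on other chromosomes than that of Hif1a differed too, among them Gm4742 on chromosome 14. Dhrs7 had 9.63 and 9.46 TPM with and 18.7 and 20.1 TPM without the floxed allele (log2 -0.98, SE 0.12, edgeR adjusted p = 0.00426), the direction seen with deletion. Gm4742 had 3.68 and 5.26 TPM with and 0.213 and 0.096 TPM without it (log2 4.76, SE 0.58, edgeR adjusted p = 0.00418).

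In all, 7 of 17330 genes tested (0.0404%) differed between the Cre(-) kidneys with and without the floxed allele, 5 higher and 2 lower, and 4 of these 7 were among the 508 genes of the HIF1a effect, in the same direction. Among them was Gm3375, a pseudogene on chromosome 7, at 27.6 to 29.2 TPM in KI kidneys and at most 0.326 TPM in every knock-in kidney with a floxed allele, whether of Hif1a or of Hif2a. Of the 12 genes past the threshold within 10 Mb of Hif1a, 2 passed in the Cre(-) comparison and 11 had the same sign there, against 200 of all 508 (39.4%). Of these 11, 4 lay within 1 SE of 0, namely Arid4a, Map4k5, Togaram1 and Slc10a1. This comparison has 2 mice on each side and borrows its spread from all 17 libraries. Every HIF1a-deleted knock-in kidney carried the floxed Hif1a allele, and no HIF1a-intact one did. Deletion of Hif1a and presence of the floxed allele thus cannot be told apart among the knock-in mice for any gene, Dhrs7 and Gm4742 included.

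The shares of Hif1a transcripts also differed between kidneys with and without the floxed Hif1a allele. Whether the allele had a part in this was not tested. Of the transcripts Hif1a-201 and Hif1a-202, Hif1a-202 made up 50.3% and 52.6% in the Cre(-) kidneys with the floxed allele and 17.1% and 13.1% in those without it. Among knock-in kidneys it made up 14.5% to 23.4% in the HIF1a-intact and 24.7% to 42.6% in the HIF1a-deleted arm, without overlap. These shares are RSEM estimates from short reads and carry no test.

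**Figure D5:**
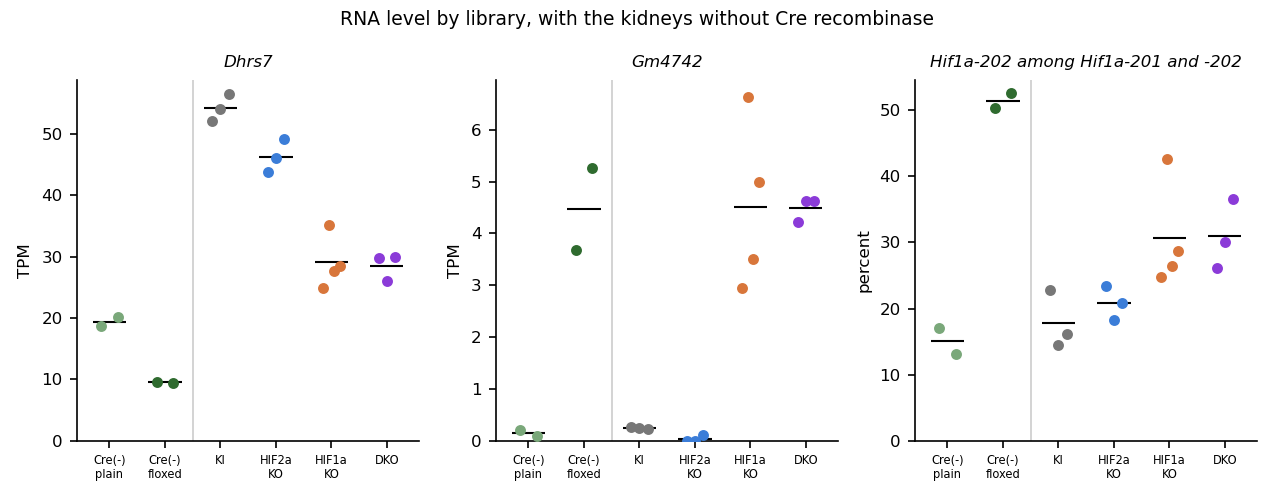
TPM of Dhrs7 and Gm4742 and the percent of Hif1a-202 among Hif1a-201 and Hif1a-202 in each kidney, with horizontal lines for group means, Cre(-) kidneys split by the floxed Hif1a allele on the left and knock-in groups on the right. In each panel the floxed Cre(-) kidneys differ from the plain ones in the direction in which HIF1a KO and DKO differ from KI and HIF2a KO.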

How the data were processed

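RNA-seq of whole mouse kidney was deposited as a table of estimated (expected) counts and a table of TPM per transcript, each with a column for every library, made by the authors with Trim Galore 0.6.6, cutadapt 2.5, STAR 2.7.9a and RSEM. The submitters' processing notes name the builds hg38 and GRCm38. No column was left unused for lack of a sample (0 columns). Deposited expected counts were summed to genes (97.8% of 119353 transcripts matched) and rounded. Deposited TPM were summed for levels compared between genes. Genes were filtered with filterByExpr (minimum count 10, 16738 kept) and tested with edgeR 4.0.16 in R 4.3.3 (TMM, quasi-likelihood test, additive HIF1a and HIF2a terms, Benjamini-Hochberg adjustment over all genes, threshold 0.05). A fit with 4 group means gave the separate comparisons and their difference. DESeq2 1.42.0 and limma 3.58.1 served as alternatives. In counts simulated for the HIF1a effect over 16738 genes, edgeR called 78% of genes changed 2-fold, with 2.2% false calls, and DESeq2 had 17.9% false calls. There, 200 genes changed 2-fold or more. Each gene was drawn on its own, without a HIF2a effect or a shift shared between genes. These rates therefore do not carry over to the calls in the real kidneys.

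Named genes were Hif1a and Epas1, the 12 protein-coding genes with the largest change in each direction among those past the threshold, with at least 1 TPM and no overlap of arms, list members past the threshold and 10 genes listed by name. Genes near Hif1a, those called in DKO against HIF2a KO and those differing in Cre(-) kidneys were added after their values were seen, as was the Cre(-) comparison. The groups and lists were chosen with earlier results of these data known. Replicate numbers did not pair the mice: over 18 same-numbered pairs the correlation of deviations from group means ran from -0.226 to 0.254, above 0.1 in 3. Some genes, 1 of them on chromosome 12, are not reported or drawn here.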

Additional observations from a re-analysis of the deposited data

Results flagged for a closer look

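In HIF1a KO kidneys (n = 4), 1 of the 4 mice stood far from the other 3 in 6 of the 83 named genes, by Dixon's test of the gap over the range. Chance alone gives such a gap in about 1 of 20 groups. HIF1a KO replicate 1 was the mouse in 5 of them. It held 3.75 CPM of Gpr135 (2.65 to 2.81 in the others), 3.94 CPM of Rtn1 (5.72 to 5.90), 110.0 CPM of Sucla2 (85.6 to 88.3), 83.7 CPM of Mrps6 (63.3 to 66.5) and 46.4 CPM of Bcl6 (36.8 to 38.2). For Slc16a3, the lactate exporter, HIF1a KO replicate 2 held 6.73 CPM against 5.66 to 5.83 CPM in the other 3 mice.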

How the results depend on the processing

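Counts of called genes moved strongly with the processing, and the causes were not tested. Beside 142 higher and 366 lower genes, DESeq2 gave 694 and 928, all 17 libraries gave 288 higher, the adipocyte score as covariate 215 higher, the proximal tubule score 2 and 1, and no HIF2a covariate 7 and 3. Limma gave 20 and 11 with log2(TPM + 1), 21 and 11 with a pseudocount of 0.1, and 13 and 5 without a filter. A log2 difference of at least 0.58 left 63 and 128. Chosen after seeing the data, leaving out both libraries that stood apart gave 734 and 952, and fits on 2 groups alone gave 246 genes for HIF1a KO against KI and 0 for DKO against HIF2a KO. DESeq2 gave 1619, 24 and 49 genes for HIF1a KO against KI, DKO against HIF2a KO and their difference. Leaving out 1 mouse gave 6 to 579 higher and 3 to 868 lower genes, 108 to 908 for HIF1a KO against KI, 1 to 4 for DKO against HIF2a KO and 0 to 1 for the difference.

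With the replicate number as a block, though the numbers did not pair the mice (3 of 12 libraries correlated best with their own number), 7 genes were higher and 3 lower, 63 passed for HIF1a KO against KI and 0 for DKO against HIF2a KO.

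Of 83 named genes, 72 passed, and none of these genes, picked by their values in the same kidneys, changed direction. The sign turned for Hif1a (0.019), Srebf1 (0.016) and Slc2a1 (0.039) with the proximal tubule score. Without 1 mouse, Slc2a1 ranged from -0.209 to 0.058 (without KI replicate 3) and Epas1 from -0.02 to 0.053, none of them past the threshold. A fit with Xist as covariate was not run, since the gene was not matched. Depth limits genes near 0.123 to 0.184 CPM.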

Other observations

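Other gene groups of the nephron and stroma gave few calls in the HIF1a comparison. Of 21 genes of the tricarboxylic acid cycle, 18 had a positive log2 difference (median 0.14) and 1, Sucla2, passed. An unadjusted p under 0.05 was reached by 8 of the 21, all higher, beside 22.8% of all genes. Of 20 genes of the respiratory chain, 16 were positive (median 0.08) and by edgeR none passed, with 4 at an unadjusted p under 0.05, where 22.8% of all genes tested reached that level. Of 21 matrix and myofibroblast genes, Col1a2 passed. An unadjusted p under 0.05 was reached by 10 of the 21, 8 of them higher in HIF1a-deleted kidneys, beside 22.8% of all genes. The lists of the collecting duct (principal cells, median 0.39, and intercalated cells, median 0.26), podocytes (0.27) and the distal convoluted tubule (0.30) had no gene past the threshold. Their counts at an unadjusted p under 0.05 were 0 of 9, 1 of 10, 0 of 7 and 4 of 6, beside 22.8% of all genes. The 4 genes of the distal convoluted tubule, 3 higher and 1 lower, stood above that share.

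Further lists with 0 genes called by edgeR were tubular injury (median 0.03), the NRF2 response (0.02), antigen presentation (-0.04), complement (0.18), insulin and AMPK signaling (-0.06) and lymphocytes (0.31). An unadjusted p under 0.05 was reached by 5 of 16, 3 of 14, 1 of 12, 5 of 9, 3 of 12 and 2 of 16, respectively, near or below the 22.8% of all genes for the NRF2 response, antigen presentation, insulin and AMPK signaling and lymphocytes. Cell cycle genes had a median of 0.32 in HIF1a KO against KI and -0.34 in DKO against HIF2a KO kidneys, and no gene passed the test of the difference by edgeR. Blood genes had a median of -1.07 with 0 genes at an unadjusted p under 0.05, and KI replicate 3 held 1153 TPM of them against 63.4 to 284 TPM in the other 12 kidneys. Adipocyte markers had a median of -2.18 in HIF1a KO against KI and 0.49 in DKO against HIF2a KO kidneys, beside the 3679 TPM of KI replicate 2.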
